A study of Homo sapiens with 9 samples.

Results

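DUSP1, DUSP4, DUSP5, DUSP6, DUSP8, DUSP10, SPRY1, SPRY2, SPRY4 and SPRED1 encode proteins that switch off MAP kinase signalling after it has been switched on. They were chosen by name, with earlier results of these data known. They are 10 of the 58233 genes in the tables, and all 10 were found in each of the 9 libraries. The DUSP genes among them encode dual-specificity phosphatases that take the activating phosphates off the threonine and tyrosine of a MAP kinase. Sprouty and SPRED proteins act further upstream, between receptor tyrosine kinases, RAS and RAF. Many of these genes are themselves induced by the kinase they restrain, which makes their transcripts a commonly used readout of ERK activity.

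RNA was measured in TC32, an established cell line from an Ewing sarcoma, a tumour driven by a fusion of EWSR1 with an ETS factor gene, grown in medium with fetal bovine serum. Cells first received either PBS or the ligand Wnt3a for 4 h, then either DMSO or SB-505124 for 24 h. SB-505124 blocks the kinase of the type I receptors for TGF-β and activin. Vehicle cells received PBS and then DMSO, Wnt3a cells had Wnt3a for 28 h in all, and the cells called inhibitor cells had Wnt3a for 28 h with SB-505124 for the last 24 h. There were 3 libraries in each of the 3 groups, and no group had the inhibitor without Wnt3a. The labels do not say that replicates were separate cultures, so p-values speak only for the spread among the libraries sequenced, part of which may be technical.

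Libraries summed to 28844348 to 42976799 expected counts, the read numbers per gene that RSEM estimates. All 9 markers of Ewing sarcoma cells were above 1 TPM (a level scaled by transcript length and by the library's total) in every library, with summed levels of 2290 to 2604 TPM in vehicle, 1914 to 2214 with Wnt3a and 1364 to 1900 with the inhibitor. Defining markers of endothelium (VWF, TEK, KDR and CDH5) and leukocytes (PTPRC and CD3E) reached at most 0.13 TPM, and the epithelial marker EPCAM at most 0.44 TPM. Of the whole lists, 4 of 6 endothelial, 5 of 6 leukocyte and 5 of 6 epithelial markers stayed below 1 TPM in every library. The others were CLDN5 and PECAM1, at up to 1.60 and 1.36 TPM, CD79A, above 1 TPM in every library at 2.96 to 6.77 TPM, and ESRP1, at 0.93 to 1.52 TPM. The sum of 6 fibroblast markers differed between groups, at 34.3 to 38.6 TPM in vehicle, 62.3 to 82.3 with Wnt3a and 47.3 to 53.9 with the inhibitor, with 1 of the 6 (PDGFRA) below 1 TPM throughout, and its part in the results was not tested. Inhibitor replicate 1 stood apart from inhibitor replicates 2 and 3 on the second principal component (-84.3 against 35.9 and 32.5). Among libraries without inhibitor, 3 lay at 21.5 to 32.3 on it (vehicle replicates 1 and 3, Wnt3a replicate 3) and the other 3 at -34.7 to -6.6. Both splits are seen again in the genes described here, and what made them was not tested.

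Inhibitor against Wnt3a asks what 24 h of SB-505124 adds to the ligand. Whether the compound acted through the TGF-β and activin receptors or through other targets was not tested. With the inhibitor, 7 of the 10 genes rose against Wnt3a cells, 0 fell and 3 did not pass. DUSP1 and DUSP5 rose most, by 11.9-fold and 9.68-fold, followed by DUSP8 at 4.90-fold, DUSP6 at 3.88-fold, SPRY2 at 2.05-fold, DUSP4 at 1.90-fold and SPRED1 at 1.73-fold. Calls are at a Benjamini-Hochberg adjusted p under 0.05 over 17880 genes in edgeR's quasi-likelihood test. The background was wide, since 50.4% of all genes tested were called, 24.5% higher and 25.9% lower. Calls that were also at least 2-fold higher made up 7.32% of all genes and 5 of the 10. The median log2 fold change was 0.98 over the 10 genes and -0.06 over all genes. In a bulk library more transcripts per cell and more cells that carry them cannot be told apart.

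**Figure D1:**
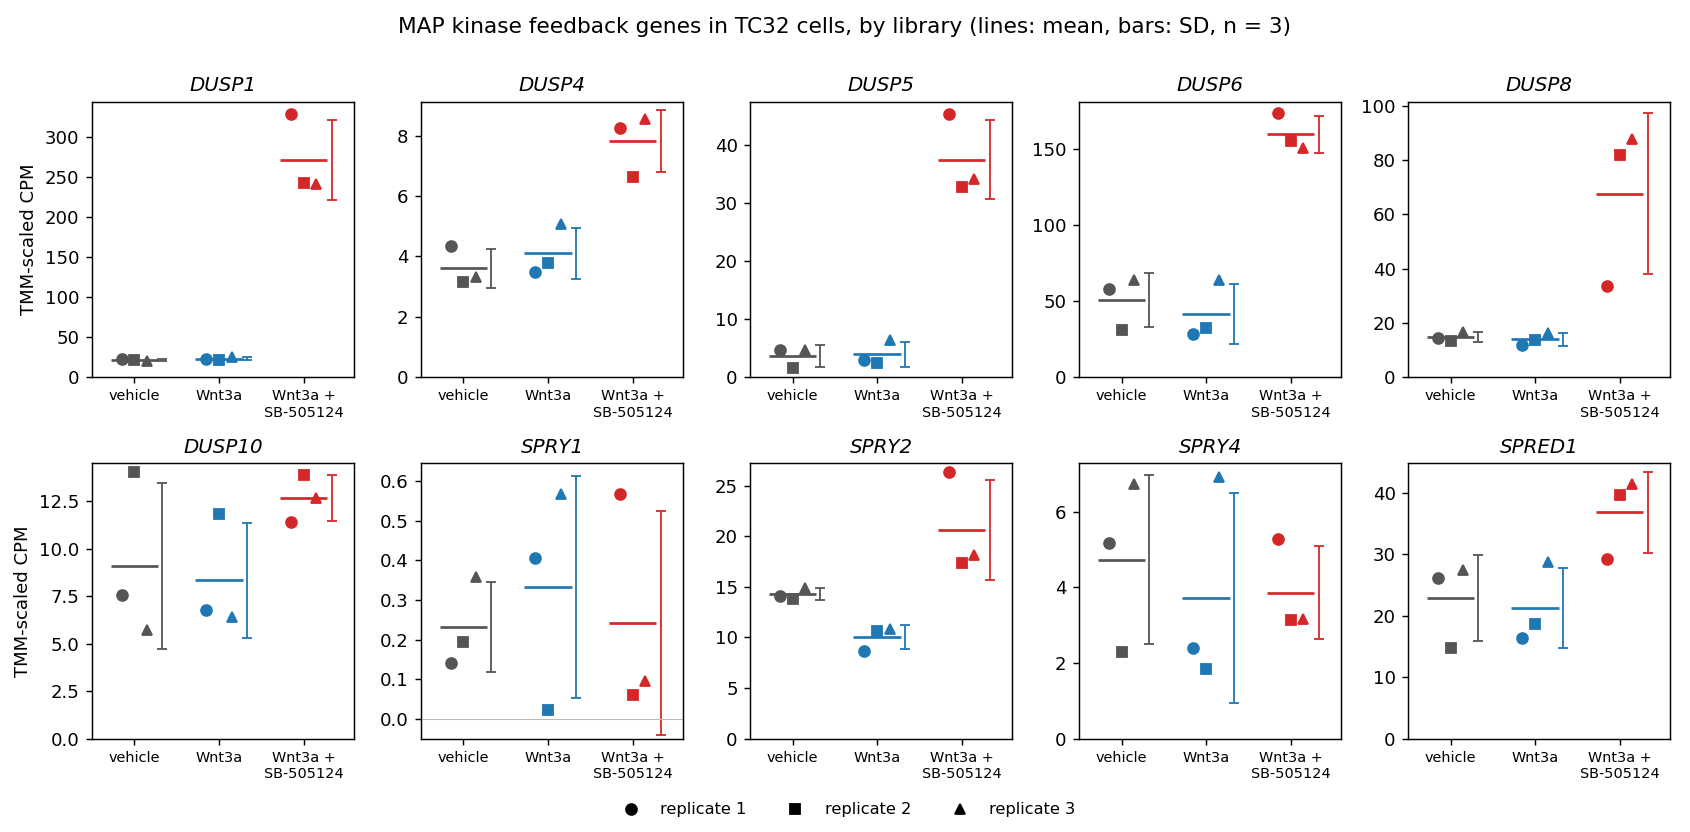
CPM (y axes, a scale per panel; counts over the TMM-scaled library total) of the 10 genes in each library (points, shaped by replicate) of the 3 groups, with the group mean (line) and SD (bar, n = 3). All 3 inhibitor libraries lie above the other 6 in 7 panels, from DUSP1 at 241.2 to 328.5 CPM down to DUSP4 at 6.66 to 8.57 CPM, while DUSP10, SPRY1 and SPRY4 overlap.

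The promoters of DUSP1 and DUSP8 are shown first, because both genes rose with the inhibitor and both hold a full cyclic AMP response element, the palindrome bound by CREB and ATF factors. They are the 250 bases before the RefSeq start on GRCh38.p14, read 5′ to 3′ on the minus strand of each chromosome, chr5:172771196-172771445 for DUSP1 and chr11:1572272-1572521 for DUSP8. Neither stretch overlaps an exon of GENCODE release 29. Capitals mark the matches, TGACGTCA in both genes and, in DUSP1, also the E-box CACGTG.
DUSP1: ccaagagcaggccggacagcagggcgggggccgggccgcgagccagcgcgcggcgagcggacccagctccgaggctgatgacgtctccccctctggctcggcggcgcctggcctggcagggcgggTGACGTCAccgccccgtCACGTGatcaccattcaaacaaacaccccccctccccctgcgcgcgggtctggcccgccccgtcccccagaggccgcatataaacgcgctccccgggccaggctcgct
DUSP8: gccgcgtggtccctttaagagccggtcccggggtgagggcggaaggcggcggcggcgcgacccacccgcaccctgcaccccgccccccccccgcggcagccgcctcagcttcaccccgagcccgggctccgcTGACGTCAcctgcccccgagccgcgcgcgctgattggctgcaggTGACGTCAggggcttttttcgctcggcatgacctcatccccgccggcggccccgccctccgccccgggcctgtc

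In DUSP1 the element spans bases 125 to 118 before the start and the E-box bases 108 to 103. In DUSP8 the element occurs at bases 118 to 111 and again at bases 74 to 67. Promoter windows were found for 8 of the 10 genes, 12 windows in all, with none for DUSP4 and DUSP5. Of these windows those of DUSP6 and SPRED1 lay within exons of GENCODE release 29 over all 250 bases, and 1 of SPRY1, that of SPRY4 and 1 of DUSP10 did so over 202, 170 and 87 bases. Matches to 8 motifs were searched on both strands: TGACGTCA, the AP-1 site TGANTCA, the E-box CACGTG, the ETS site CCGGAA, the repeat GGAAGGAA bound by EWSR1-FLI1, the serum response element, the SMAD palindrome GTCTAGAC and the TCF/LEF site CTTTGAT. Of 27305 genes, each taken with only its first listed window of this length, 1.77% held TGACGTCA, 6.49% CACGTG and 14.83% CCGGAA. For the 10 genes every window was searched, so a gene with several had more room for a match. The SPRY1 match given next is not in its first listed window. The other matches in the 12 windows were CCGGAA in SPRY2 and in the SPRY1 window with 202 exonic bases, and the letters of AP-1, GGAAGGAA, the serum response element, the SMAD palindrome and the TCF/LEF site were in none of them. No match overlapped another. TGACGTCA was in no window of SPRY2, DUSP6 and SPRED1, which also rose with the inhibitor. A match is a stretch of letters, and binding was not measured. Whether the element had a part in any rise was not tested.

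Of the nuclear phosphatases DUSP1 and DUSP5 rose most of the 10 genes, and DUSP4 rose less. DUSP1, which acts on p38, JNK and ERK and is a classic early-response gene, had 21.7, 21.3 and 19.4 CPM in vehicle replicates 1 to 3. It had 21.9, 21.5 and 24.7 CPM with Wnt3a, and 328.5, 242.6 and 241.2 CPM with the inhibitor. The 6 libraries without inhibitor were thus close together, and the 3 inhibitor libraries were far above them. DUSP1 rose by a log2 fold change of 3.58 against Wnt3a (SE 0.142, edgeR adjusted p = 4.66e-07).

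DUSP5, a nuclear phosphatase specific for ERK, had 4.61, 1.48 and 4.63 CPM in vehicle and 2.89, 2.30 and 6.37 CPM with Wnt3a. With the inhibitor it had 45.2, 32.8 and 34.2 CPM, each above every library without inhibitor. DUSP5 rose by 3.28 on the log2 scale against Wnt3a (SE 0.463, edgeR adjusted p = 0.000281). The libraries without inhibitor spread far more for DUSP5 than for DUSP1, and the SE is larger. The 2 processed pseudogenes named for DUSP5 had together 0.37% to 54.10% of its expected counts, and at most 0.84% in the inhibitor libraries.

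DUSP4, a nuclear phosphatase of ERK and JNK, was low throughout, with 129 to 268 counts in a library. It had 4.36, 3.15 and 3.30 CPM in vehicle, 3.47, 3.80 and 5.08 CPM with Wnt3a, and 8.27, 6.66 and 8.57 CPM with the inhibitor. The inhibitor libraries were all higher, by a smaller margin than for DUSP1 and DUSP5. DUSP4 rose by 0.93 on the log2 scale against Wnt3a (SE 0.219, edgeR adjusted p = 0.00556). The call was lost on log2(TPM + 1) and log2(TPM + 0.1) values (limma adjusted p = 0.0591 and 0.10, 0.000182 to 0.10 over the alternatives).

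DUSP6, the cytoplasmic phosphatase specific for ERK, was the most abundant of the 10 without inhibitor. It had 57.6, 30.6 and 63.7 CPM in vehicle and 27.8, 31.8 and 63.7 CPM with Wnt3a. With the inhibitor it had 173.4, 154.8 and 150.5 CPM. Libraries without inhibitor fell into a high set (vehicle replicates 1 and 3 and Wnt3a replicate 3) and a low set, and the inhibitor libraries were above both. In TPM the inhibitor libraries were nearly equal, at 105.58, 104.06 and 104.16. DUSP6 rose by 1.96 on the log2 scale against Wnt3a (SE 0.333, edgeR adjusted p = 0.000862).

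DUSP8 and DUSP10 encode phosphatases that prefer the stress kinases JNK and p38. DUSP8 had 14.2, 13.3 and 16.6 CPM in vehicle, 11.6, 13.6 and 16.2 CPM with Wnt3a, and 33.6, 81.9 and 87.8 CPM with the inhibitor. Inhibitor replicate 1 was at most 0.5 times the lower of the other 2, as it was for 5.69% of all genes tested. DUSP8 rose by 2.29 on the log2 scale against Wnt3a (SE 0.311, edgeR adjusted p = 0.000216), and by 2.62 without inhibitor replicate 1 (edgeR adjusted p = 6.4e-06, up to 0.00225 over the alternatives). An overlapping antisense gene and 3 pseudogenes of DUSP8 had together 1.39% to 13.87% of its expected counts, at most 1.73% in the inhibitor libraries. No source used here gives the strand setting of the counting.

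DUSP10 did not pass. It had 7.56, 14.0 and 5.71 CPM in vehicle, 6.79, 11.8 and 6.4 CPM with Wnt3a, and 11.4, 13.9 and 12.7 CPM with the inhibitor. Replicate 2 was the highest library in each group, and the groups overlapped. The log2 fold change against Wnt3a was 0.60 (95% interval -0.14 to 1.34, edgeR adjusted p = 0.154), so a 2-fold rise lies inside the interval. Of 21 alternatives 1, the replicate block, called it higher (edgeR adjusted p = 0.0256, up to 0.461 over the alternatives).

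Of the 3 Sprouty genes 1 rose. SPRY2, which binds GRB2 and CBL to blunt receptor signalling, had 14.1, 13.8 and 14.9 CPM in vehicle, 8.67, 10.6 and 10.9 CPM with Wnt3a, and 26.3, 17.3 and 18.2 CPM with the inhibitor. In CPM the 3 groups did not overlap, with Wnt3a lowest and the inhibitor highest. In TPM vehicle (9.47 to 10.39) and inhibitor (9.80 to 14.91) overlapped. SPRY2 rose by 1.04 on the log2 scale against Wnt3a (SE 0.174, edgeR adjusted p = 0.000787). Inhibitor replicate 1 was the highest library, and without it the log2 fold change was 0.83 (edgeR adjusted p = 0.00071, up to 0.0151 over the alternatives).

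SPRED1, a membrane protein that brings the RAS inhibitor neurofibromin to RAS, had 26.2, 14.8 and 27.5 CPM in vehicle, 16.4, 18.6 and 28.7 CPM with Wnt3a, and 29.3, 39.7 and 41.5 CPM with the inhibitor. In CPM the lowest inhibitor library lay just above the highest of the others. In TPM the lowest inhibitor library (4.67) lay below the highest Wnt3a library (5.75). SPRED1 rose by 0.79 on the log2 scale against Wnt3a (SE 0.269, edgeR adjusted p = 0.0315). The call was lost under library totals (edgeR adjusted p = 0.0923), with TPM (limma adjusted p = 0.23 and 0.233) and without Wnt3a replicate 1 or 2 or inhibitor replicate 2 or 3 (edgeR adjusted p = 0.0857 to 0.112, 0.00128 to 0.233 over all alternatives).

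SPRY4, another Sprouty induced by ERK in many cells, had 5.17, 2.30 and 6.73 CPM in vehicle, 2.41, 1.85 and 6.92 CPM with Wnt3a, and 5.28, 3.13 and 3.16 CPM with the inhibitor. The highest library of all was a Wnt3a library, and the groups overlapped. The log2 fold change against Wnt3a was 0.05 (95% interval -1.12 to 1.21, edgeR adjusted p = 0.95). Its sign was the opposite under library totals (-0.17), the effective length offset and TPM, and without Wnt3a replicate 1 or 2 or inhibitor replicate 1.

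SPRY1, the remaining Sprouty, was near the limit of detection with 1 to 25 counts in a library, at 0.02 to 0.57 CPM, and its groups overlapped (log2 -0.50 against Wnt3a, 95% interval -2.72 to 1.72, edgeR adjusted p = 0.700). A change of 2-fold in either direction lies inside that interval.

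**Figure D2:**
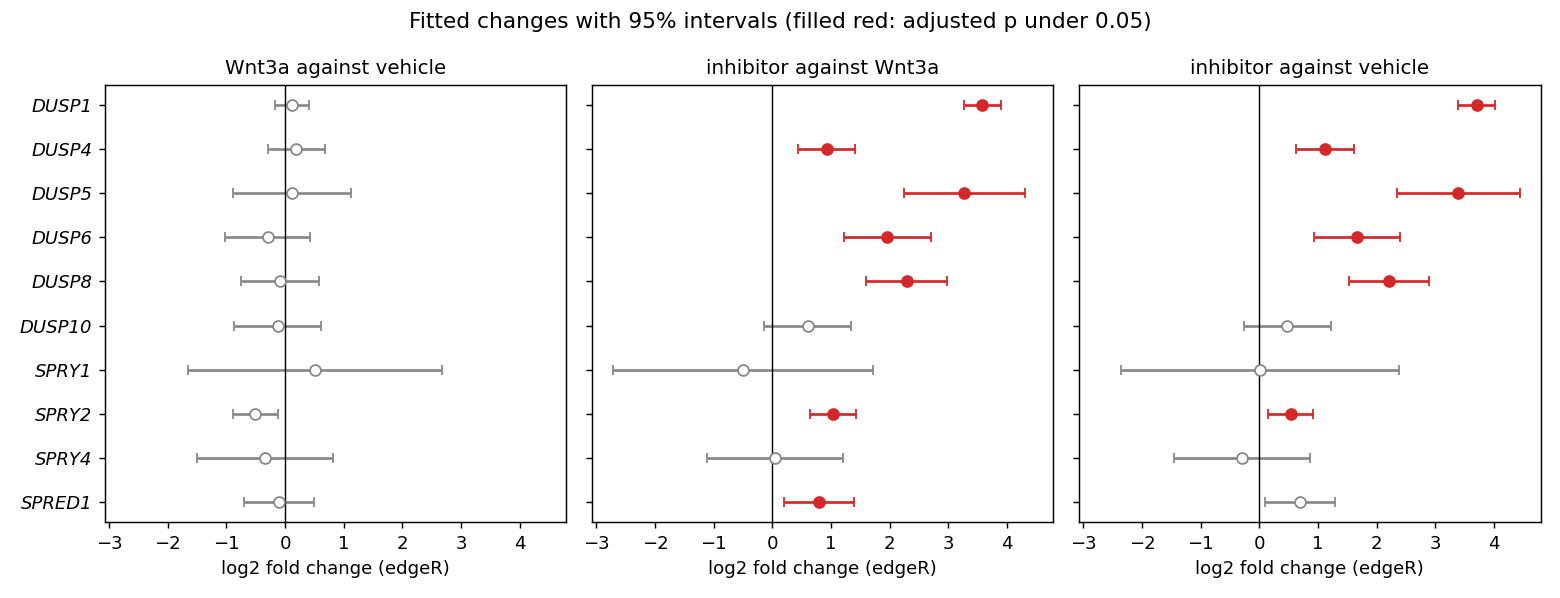
Log2 fold changes fitted by edgeR (points) with 95% intervals (bars) for the 10 genes in the 3 comparisons, filled red at an adjusted p under 0.05. All intervals but that of SPRY2 cross 0 for Wnt3a against vehicle, where 0 of the 10 passed, and 7 and 6 of the 10 are red for inhibitor against Wnt3a and against vehicle.

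Wnt3a against vehicle asks whether the ligand alone moves these genes. In edgeR 0 of the 10 passed, as did 0 with DESeq2 and 0 with limma-voom. Of all genes 0.419% were called in edgeR, 0.397% higher and 0.0224% lower. DUSP1, with a log2 fold change of 0.12 (95% interval -0.17 to 0.42), had the tightest interval of the 10. The intervals of DUSP5 (-0.89 to 1.12), DUSP6 (-1.02 to 0.42) and SPRY4 (-1.50 to 0.81) still hold a 2-fold change in at least 1 direction. That of SPRY1 (-1.65 to 2.67), the widest of the 10, holds it in both directions. At an unadjusted p under 0.05 edgeR gave 1 of the 10, SPRY2, against 7.62% of all genes. Its log2 fold change was -0.51 (95% interval -0.89 to -0.12, edgeR adjusted p = 0.446, 0.121 to 0.972 over the alternatives). All 3 Wnt3a libraries of SPRY2 lay below all 3 vehicle libraries.

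Inhibitor against vehicle shares the inhibitor libraries with the comparison above and is given for the level reached, not as separate evidence. Of the 10 genes 6 were higher and 0 lower, where 49.7% of all genes were called, 25.0% higher and 24.8% lower. Calls at least 2-fold higher made up 8.33% of all genes and 5 of the 10. The log2 fold changes were 3.70 for DUSP1 (SE 0.143, edgeR adjusted p = 3.9e-07), 3.39 for DUSP5, 2.21 for DUSP8, 1.66 for DUSP6, 1.12 for DUSP4 and 0.53 for SPRY2. The last was lost in 7 of 21 alternatives, among them without inhibitor replicate 1 (0.32, edgeR adjusted p = 0.0661) and without any single vehicle replicate (edgeR adjusted p = 0.0547 to 0.0704, 0.0112 to 0.329 over all alternatives). For SPRED1 the change was 0.69 on the log2 scale, short of the threshold (edgeR adjusted p = 0.0545, 0.00485 to 0.279 over the alternatives), and 6 of 21 alternatives called it. DUSP10 had 0.48 (95% interval -0.26 to 1.21, edgeR adjusted p = 0.259). Of 21 alternatives 2 called it higher, the replicate block and the fit without vehicle replicate 2 (0.93, edgeR adjusted p = 0.0251, up to 0.595 over the alternatives).

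The scale moves these values together. With library totals in place of TMM factors, the median of all genes against Wnt3a went from -0.06 to -0.31 and that of the 10 genes from 0.98 to 0.74, and the calls over all genes from 4379 higher and 4634 lower to 2828 and 6425. On the TPM scale the 3 inhibitor libraries lay above the other 6 for 5 of the 10 genes (DUSP1, DUSP4, DUSP5, DUSP6 and DUSP8), against 13.7% of all genes. On the CPM scale this held for 7 of the 10, with SPRY2 and SPRED1 in addition, against 24.4% of all genes.

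Levels can be compared between genes in TPM. In vehicle, DUSP6 led with 41.4 ± 14.7 TPM (SD, n = 3 here and below), then DUSP1 with 15.2 ± 0.759, SPRY2 with 9.88 ± 0.469, DUSP10 with 5.49 ± 2.95, DUSP8 with 5.11 ± 0.342 and SPRED1 with 4.55 ± 1.32. DUSP5 with 2.36 ± 1.03, SPRY4 with 1.43 ± 0.724, DUSP4 with 0.940 ± 0.176 and SPRY1 with 0.177 ± 0.0493 TPM were lowest. The ranges of DUSP10, DUSP8, SPRED1 and DUSP5 overlapped from neighbour to neighbour, as did those of DUSP5, SPRY4 and DUSP4, while the steps from DUSP6 to DUSP1, DUSP1 to SPRY2, SPRY2 to DUSP10 and DUSP4 to SPRY1 exceeded the spread.

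With the inhibitor the order at the top changed. DUSP1, at 163 ± 28.5 TPM, stood above DUSP6, at 104.6 ± 0.850 TPM, in every library. DUSP5 with 21.3 ± 3.08 and DUSP8 with 19.0 ± 8.39 TPM followed and overlapped, as DUSP8 did with SPRY2 at 11.8 ± 2.74. Below them came DUSP10 with 6.57 ± 1.02, SPRED1 with 5.90 ± 1.07, DUSP4 with 1.70 ± 0.239, SPRY4 with 0.953 ± 0.278 and SPRY1 with 0.147 ± 0.11 TPM, where DUSP10 and SPRED1 overlapped. With Wnt3a alone the order of the leading genes was that of vehicle, with DUSP6 at 35.0 ± 16.8, DUSP1 at 17.4 ± 0.938 and SPRY2 at 7.31 ± 0.936 TPM.

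The 6 DUSP genes and the 4 Sprouty and SPRED genes differed in summed level and in make-up. These sums hold the chosen genes alone, not the whole families. DUSP7, DUSP16 and SPRED2 are among the expressed relatives left out. Summed over the 6 DUSP genes the level was 56.2 to 80.9 TPM in vehicle, 51.8 to 88.0 with Wnt3a and 298.7 to 343.0 with the inhibitor. DUSP6 made up 44.9% to 66.7% of that sum in vehicle and 30.8% to 34.8% with the inhibitor, while DUSP1 went from 17.7% to 27.4% in vehicle to 48.4% to 57.1%. Summed over the 4 Sprouty and SPRED genes the level was 13.4 to 18.2 TPM in vehicle, 10.8 to 16.1 with Wnt3a and 17.1 to 21.1 with the inhibitor, with the highest vehicle library above the lowest inhibitor library. SPRY2 was the largest part of it in all groups, at 47.6% to 70.7%.

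**Figure D3:**
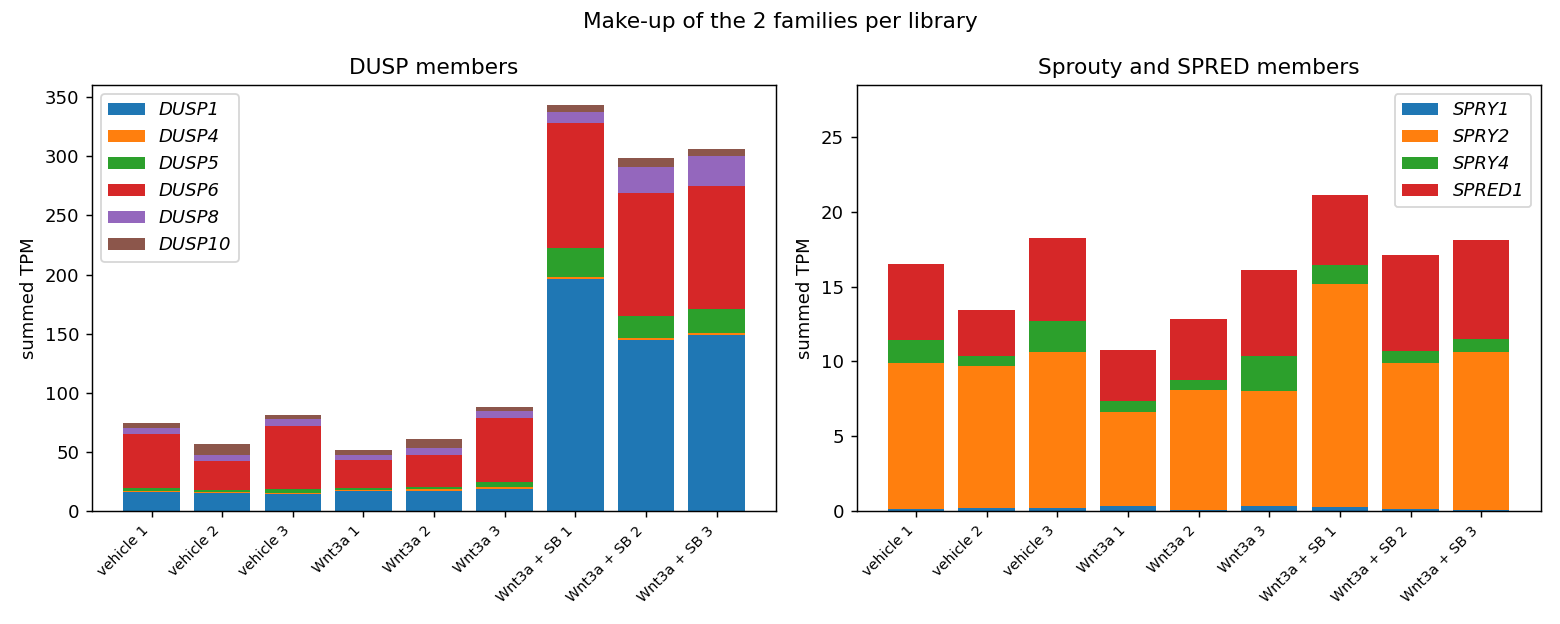
Summed TPM (y axes, from 0) of the 6 DUSP genes (left) and of the 4 Sprouty and SPRED genes (right) in each of the 9 libraries, split by gene (colours). The DUSP sum reaches at least 298.7 TPM in the inhibitor libraries and at most 88.0 TPM elsewhere, while the Sprouty and SPRED sums overlap between groups.

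Within the 6 libraries without inhibitor, 5 of the 10 genes parted in the same way, across the groups. For DUSP5, DUSP6, DUSP8, SPRY4 and SPRED1, vehicle replicates 1 and 3 and Wnt3a replicate 3 were all above vehicle replicate 2 and Wnt3a replicates 1 and 2. This order, chosen once the values were known, held for 15.9% of all genes tested. The reverse order held for 15.4% of all genes and 0 of the 10. The 2 sets were 57.6 to 63.7 against 27.8 to 31.8 CPM for DUSP6, 5.17 to 6.92 against 1.85 to 2.41 CPM for SPRY4, and 4.61 to 6.37 against 1.48 to 2.89 CPM for DUSP5. For SPRED1 they were 26.2 to 28.7 against 14.8 to 18.6 CPM, and for DUSP8 14.2 to 16.6 against 11.6 to 13.6 CPM. DUSP1 showed no such split, with 19.4 to 24.7 against 21.3 to 21.9 CPM. The libraries that part here are those that part on the second principal component, and the cause was not tested.

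**Figure D4:**
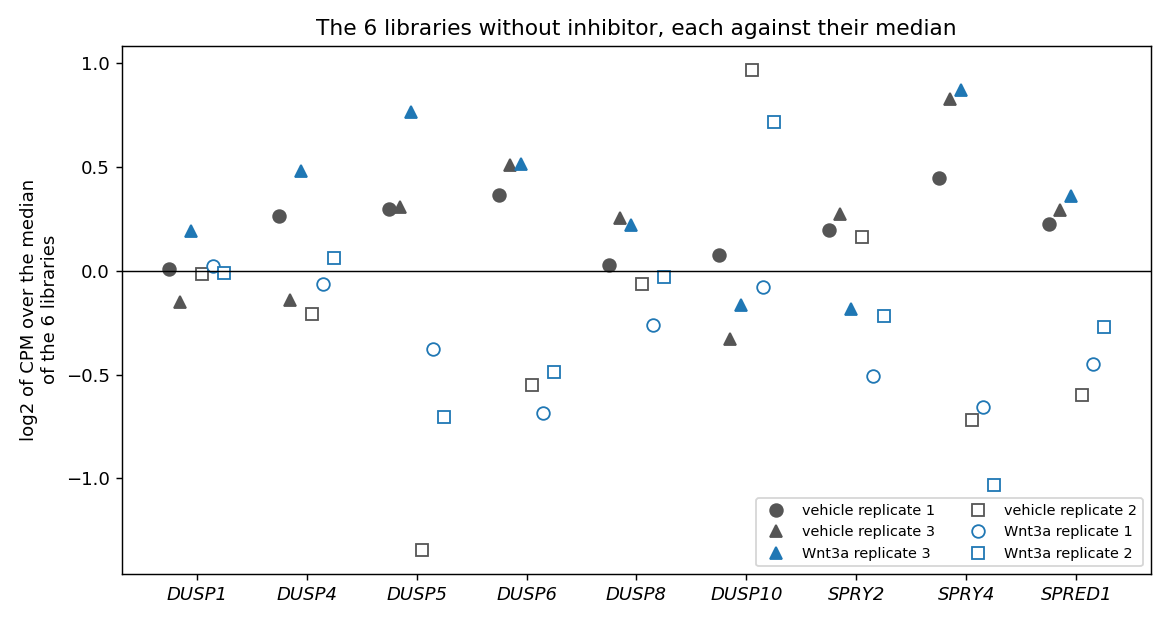
Log2 of CPM over the median of the 6 libraries without inhibitor (y axis) for 9 of the genes, with vehicle in grey and Wnt3a in blue, and filled symbols for vehicle replicates 1 and 3 and Wnt3a replicate 3. Filled symbols lie above all open ones for DUSP5, DUSP6, DUSP8, SPRY4 and SPRED1, and SPRY1, at 1 to 25 counts, is left out.

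The genes whose log2 CPM followed DUSP6 most closely over the 9 libraries were CDKL2 (Pearson r = 0.992), RAVER2 (0.991), TRIM38 (0.990), RAB4A (0.989) and STOM (0.988), out of 14084 genes with a mean of at least 1 CPM. The 9 libraries share the step between inhibitor and the rest, which any gene that rises with the inhibitor has too. The list was not steady, since leaving out 1 library kept 0 to 4 of the 5 names, and 0 without inhibitor replicate 1. Among the genes of the family, DUSP5 was closest to DUSP6 (r = 0.97), with SPRED1 and DUSP4 at 0.91 and DUSP10 at 0.30.

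Other genes of the MAP kinase pathway were read from lists chosen by name, also with earlier results of these data known. With Wnt3a against vehicle 0 genes of these 7 lists passed in edgeR, where 0.419% of all genes did. At an unadjusted p under 0.05 edgeR gave 20 of the 115 tested, and 7.62% of all genes. For inhibitor against Wnt3a the counts stand against 24.5% of all genes called higher and 25.9% lower. Of 3 further MAP kinase phosphatases tested, 2 rose and 0 fell. DUSP16, a JNK and p38 phosphatase, rose to 103.6 ± 25.3 CPM with the inhibitor, against 33.6 ± 2.62 with Wnt3a (log2 1.62, SE 0.171, edgeR adjusted p = 5.2e-05). DUSP2, an inducible nuclear phosphatase, rose to 5.33 ± 1.21 CPM, against 0.928 ± 0.341 (log2 2.52, SE 0.363, edgeR adjusted p = 0.000314). DUSP7, a cytoplasmic ERK phosphatase related to DUSP6, had 27.5 ± 4.04 CPM with the inhibitor and 26.4 ± 1.65 with Wnt3a (edgeR adjusted p = 0.705). Atypical dual-specificity phosphatases, which mostly lack the MAP kinase binding domain, had 2 of 12 higher (DUSP11 and DUSP14) and 6 lower, among them DUSP22 from 11.8 ± 1.04 to 4.22 ± 0.931 CPM (edgeR adjusted p = 0.000105).

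Of 17 other genes commonly induced by ERK, 8 rose and 2 fell, with a median log2 fold change of 0.89. EPHA2, an ephrin receptor, went up to 174.7 ± 14.3 CPM, against 46.3 ± 13.4 (edgeR adjusted p = 3.04e-05), and FOS, an AP-1 subunit, to 118.3 ± 42.8 CPM, against 18.4 ± 6.44 (edgeR adjusted p = 0.000126). The cytokine gene LIF reached 4.85 ± 1.64 CPM, against 1.14 ± 0.262 (edgeR adjusted p = 0.000421). Lower were EPHA4, a further ephrin receptor, from 192.7 ± 16.5 to 88.4 ± 9.84 CPM (edgeR adjusted p = 8.98e-05), and CCND1, the G1 cyclin D1, from 1874 ± 399 to 1019 ± 106 CPM (edgeR adjusted p = 0.00163). ETV4 and ETV5 are ETS factors often used with DUSP6 and SPRY4 as ERK readouts. Their log2 fold changes were 0.88 (SE 0.71) and 0.19 (SE 0.61), with edgeR adjusted p = 0.33 and 0.817. ETV4 was near the limit of detection, at 0.51 ± 0.32 CPM with the inhibitor and lower with Wnt3a. ETV5 spread widely, at 9.84 ± 2.06 CPM with the inhibitor and 8.64 ± 7.36 with Wnt3a. With SEs this large, these values do not settle whether either gene rose or stayed level.

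Of 25 genes of the ERK cascade 10 rose and 3 fell, led by the kinase genes ARAF, from 44.6 ± 1.69 to 128.2 ± 7.24 CPM (edgeR adjusted p = 2.88e-06), and BRAF, from 37.2 ± 5.31 to 121 ± 5.65 CPM (edgeR adjusted p = 1.45e-05), and the FGF receptor adaptor FRS2, from 39.4 ± 1.45 to 77.4 ± 8.76 CPM (edgeR adjusted p = 5.28e-05). Of 24 genes of the JNK and p38 cascades 9 rose and 2 fell. GADD45A, a stress-induced activator of the p38 and JNK arms, rose to 215.9 ± 63.0 CPM, against 18.8 ± 4.87 (log2 fold change 3.52, SE 0.297, adjusted p = 1.54e-05 in edgeR). The p38 gene MAPK11 fell by 1.45 on the log2 scale (edgeR adjusted p = 0.000119).

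Of 18 receptor tyrosine kinase genes 0 were called higher in edgeR and 4 lower, the latter close to the background share, and at an unadjusted p under 0.05 it gave 2 higher and 6 lower, against 27.2% and 29.7% of all genes. KIT, the stem cell factor receptor, fell from 263.8 ± 13.7 to 130.8 ± 28.7 CPM (edgeR adjusted p = 0.000715), and PDGFRB and FGFR1 fell by 0.83 and 0.59 on the log2 scale (edgeR adjusted p = 0.00224 and 0.00247). The lists were not tested with another tool. Of 16 other inhibitors of RAS and ERK signalling 4 rose and 4 fell, both close to the background shares of 24.5% and 25.9%. The ubiquitin ligase gene CBLB rose to 31.3 ± 5.67 CPM, against 9.58 ± 1.27 (edgeR adjusted p = 2.86e-05), and LRIG1, a membrane protein that lowers receptor levels, fell from 155.8 ± 29.5 to 49.5 ± 6.64 CPM (edgeR adjusted p = 2.7e-05). SPRED2 and the neurofibromin gene NF1, partners of SPRED1 by sequence and by binding, had log2 fold changes of 0.05 and -0.06 (edgeR adjusted p = 0.844 and 0.706).

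**Figure D5:**
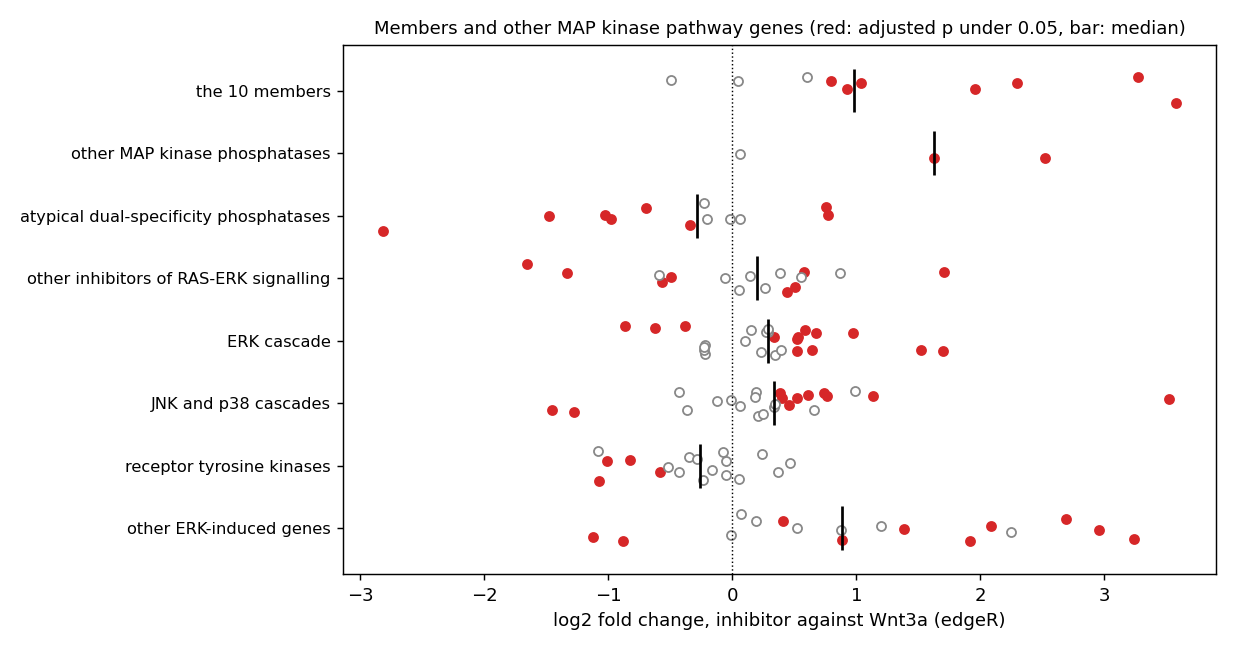
Log2 fold change of inhibitor against Wnt3a (x axis) for each tested gene (points, red at an edgeR adjusted p under 0.05) of the 10 genes and of 7 lists, with the median of each row as a bar (vertical scatter has no meaning). The medians are 0.98 for the 10 genes, 1.62 for 3 other MAP kinase phosphatases, 0.89 for other ERK-induced genes and -0.26 for receptor tyrosine kinases, against -0.06 over all genes.

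The transcripts differ in a feature tied to short half-lives, the AU-rich pentamer ATTTA in the 3′ UTR. In the longest annotated 3′ UTR of each gene in GENCODE release 29, DUSP1 had 4 copies of ATTTA in 672 bases, 5.95 per kilobase, at percentile 95.1 of 13445 coding genes, whose median was 1.69 per kilobase. SPRED1 had 24 copies in 5585 bases (4.30 per kilobase) and SPRY1 4 copies in 1209 bases (3.31 per kilobase). DUSP5, with the next largest rise after DUSP1, had 0 copies in 1118 bases, and DUSP6 had 1 in 2022 bases. The longer form TATTTAT occurred in 7 of the 10 genes and in 35.9% of all those genes, whose median 3′ UTR was 1400 bases long, and a longer one holds more by length alone. Which of the annotated ends TC32 cells use was not tested.

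In hg38, DUSP1 (ENSG00000120129.5) spans positions 172768090 to 172771195 of chromosome 5, DUSP5 (ENSG00000138166.5) 110497838 to 110511544 of chromosome 10, DUSP6 (ENSG00000139318.7) 89347232 to 89353271 of chromosome 12 and DUSP8 (ENSG00000184545.10) 1554044 to 1571920 of chromosome 11. SPRY2 (ENSG00000136158.11) spans 80335976 to 80340951 of chromosome 13. DUSP1 takes up 3106 bases of the genome and SPRED1 104924, the shortest and the longest of the 10. The effective length that RSEM assigned to a gene, which follows the mix of its transcripts, did not separate the inhibitor libraries from the rest for any of the 10 genes. For DUSP5 it ran from 1783.43 to 2343.27 bases and for DUSP6 from 1713.36 to 1927.19 bases over the 9 libraries.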

How the data were processed

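Polyadenylated RNA of 9 TC32 libraries, captured with a stranded TruSeq kit (per the labels' protocols), was processed by the authors with CASAVA 1.8.2, Trimmomatic 0.36, STAR 2.5.2a and RSEM 1.2.31 on hg38, per the submitters' processing notes. No source used here gives the annotation release, the strand setting or filters. The deposited tables hold expected counts per gene, and TPM, FPKM and effective length made by the authors, per the file headers.

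Of 58278 rows, 45 second rows of pseudoautosomal genes were added to their partners. Expected counts were rounded, filtered with filterByExpr (17880 genes) and scaled by TMM. One model with the 3 groups was fitted with edgeR 4.0.16 in R 4.3.3 (6 residual degrees of freedom, common biological coefficient of variation 21.5%). The SE is the log2 fold change divided by the square root of F. CPM are TMM-scaled. The code of the fit was run on simulated counts that spread less than these data, with changes put in for Wnt3a against vehicle only. That run cannot show how the fit performs at the spread seen here. Pearson correlations used log2 CPM with a prior count of 0.5. Replicate pairs of a group differed by more than sampling noise (chi-square per degree of freedom 7.2 to 64.2).

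Alternatives were RLE factors, library totals, 2 other filters, DESeq2 1.42.0, limma-voom (limma 3.58.1), unrounded counts, an effective length offset, 2 groups alone, the replicate block, log2(TPM + 1) and log2(TPM + 0.1) with limma, FPKM for the order of levels, and leaving out each library. The named genes are the 10 themselves, the 5 nearest to DUSP6, and up to 3 higher and 3 lower per list with the smallest adjusted p against Wnt3a, of which not all are described. DUSP7, ETV4, ETV5, SPRED2 and NF1 fall outside it and were picked with their values known. The genes, lists and motifs were chosen with earlier results of these data known. Gene positions and 3′ UTRs come from GENCODE release 29, which held 99.4% of the gene IDs with the version ignored, and promoters from RefSeq. One gene that this rule names is not reported here.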

Additional observations from a re-analysis of the deposited data

How the results depend on the processing

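The number of the 10 genes past the threshold was 0 for Wnt3a against vehicle in all 21 alternatives, 5 to 8 for inhibitor against Wnt3a (7 as reported, 6 to 7 without 1 library) and 5 to 8 for inhibitor against vehicle (6 as reported, 5 to 7 without 1 library). DUSP1, DUSP5, DUSP6 and DUSP8 passed in all 21 alternatives of both inhibitor comparisons, with log2 fold changes against Wnt3a of 3.14 to 3.66, 2.61 to 3.85, 1.65 to 2.42 and 1.60 to 2.62. SPRY2 passed in all 21 against Wnt3a. Over all genes the count for Wnt3a against vehicle went from 75 to 259 without a filter on low counts, 261 with DESeq2 and 20 to 140 without 1 library. The 5 genes nearest to DUSP6 shared 0 to 4 names without 1 library. The cause was not tested for these changes.

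Same-numbered libraries of 2 groups had deviations from their group means that correlated at -0.15 to 0.35. Those with different numbers correlated at -0.38 to 0.25. The ranges overlap, and these values do not settle whether the numbers pair the libraries. With the replicate block, 8 genes passed against Wnt3a and 8 against vehicle. DUSP10 then passed in both (0.67 and 0.58, edgeR adjusted p = 0.0256 and 0.0479), and SPRED1 against vehicle (0.71).

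Signs turned for changes that had not passed. For Wnt3a against vehicle, TPM gave DUSP8 0.01 with either pseudocount and DUSP10 0.00 with the smaller, and limma-voom gave SPRY1 -0.22. Without 1 library the ranges were -0.46 to 0.38 for DUSP5, -0.22 to 0.02 for DUSP8, -0.47 to 0.33 for DUSP10, -0.14 to 1.06 for SPRY1, -1.15 to 0.00 for SPRY4 and -0.38 to 0.05 for SPRED1. For inhibitor against Wnt3a, SPRY4 was -0.17 with library totals, -0.08 with the effective length offset, and -0.14 and -0.18 on log2(TPM + 1) and log2(TPM + 0.1). Without 1 library it was -0.28 to 0.86, and SPRY1 -2.03 to 0.16. For inhibitor against vehicle, SPRY1 was -0.20 with library totals, -0.01 without a filter, -0.49 with limma-voom, -0.30 with the replicate block, -0.04 and -0.24 on the 2 TPM scales, and -1.52 to 0.49 without 1 library, where SPRY4 was -0.63 to 0.05. SPRY1 had 1 to 25 counts a library and spread widely within groups, and what low counts and replicate spread each add to its interval was not tested. With 3 libraries a group the spread is poorly known.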
